A study of Mus musculus with 4 samples.

Results

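Iron and heme metabolism was followed through 10 genes, which were chosen by name from the 27745 gene names on the array. Tfrc and Slc11a2 take up iron, Fth1 and Ftl1 store it, Slc40a1 exports it, Aco1 and Ireb2 sense it, Alas1 and Alas2 begin heme synthesis and Hmox1 breaks heme down. Every non-control probe listed under these names was used, which gave 16 of the 41174 probes of the array. Total RNA of 2 B-cell lymphoma lines was compared with that of 2 samples of B220+ splenocytes, the spleen cells that carry this B-cell form of CD45. The lines were established independently from mice transgenic for the dopamine receptor 3 gene, and the splenocytes came from C57BL/6N animals. All 4 samples are listed as C57BL/6N and female, and neither the age of the mice nor the promoter of the transgene is given in the sources used here.

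Cells take up transferrin-bound iron through the transferrin receptor, keep the surplus in ferritin and spend it on heme and on iron-sulfur clusters. When iron is scarce, the iron regulatory proteins encoded by Aco1 and Ireb2 bind iron-responsive elements in mRNA. Binding protects Tfrc mRNA from decay and blocks translation of the mRNAs for ferritin, ferroportin and the erythroid form of aminolevulinate synthase. In the spleen, erythroid cells and the macrophages of the red pulp handle most of this iron, and dividing lymphocytes carry the transferrin receptor. The arrays measured RNA and carry no information on translation.

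The lines carried RNA of the B-cell list. All 9 B-cell markers, which include Cd79a, Cd79b, Ms4a1 and Pax5, were well above background on all 4 arrays, and 6 of them fell in the lines. Drd3 gave 0.0125 and 0.0113 times the array's 75th percentile in the lines, against 0.00887 and 0.0057 in the splenocytes, where its probe was not well above background (log2 difference 0.75, limma adjusted p = 0.0613). The lines had 25997 to 26161 probes well above background and the splenocytes 25042 to 27421, and no spot was saturated. The 4 arrays shared 1 slide and 1 scan. Each line has 1 array, and nothing in the labels says whether the splenocyte samples came from different mice, so the p-values rest on the spread among these 4 samples alone, part of which may be technical. Lymphoma, growth as a cell line and mouse of origin cannot be told apart in this design, nor can fewer cells of a type and less RNA per cell.

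RefSeq (GRCm38.p6) start-site windows matched 7 of the 10 genes. Those of Alas1, Alas2 and Tfrc are shown because Alas1 and Alas2 catalyse the same reaction and moved in opposite directions, and because Tfrc is the main route of iron into dividing cells. Each stretch holds the 250 bases before the outermost start site, on the transcribed strand. Capitals mark matches on either strand to AGATAA (bound by GATA factors), GGGCGG (GC box), CCAAT or CACGTG (E box), which do not overlap in these stretches.
Alas1 (chr9:106247955-106248204, minus strand): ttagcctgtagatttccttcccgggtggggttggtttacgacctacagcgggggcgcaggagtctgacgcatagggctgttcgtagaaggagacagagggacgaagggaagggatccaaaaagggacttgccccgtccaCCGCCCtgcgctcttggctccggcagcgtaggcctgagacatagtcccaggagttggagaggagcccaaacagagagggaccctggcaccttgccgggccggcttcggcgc
Alas2 (chrX:150547167-150547416, plus strand): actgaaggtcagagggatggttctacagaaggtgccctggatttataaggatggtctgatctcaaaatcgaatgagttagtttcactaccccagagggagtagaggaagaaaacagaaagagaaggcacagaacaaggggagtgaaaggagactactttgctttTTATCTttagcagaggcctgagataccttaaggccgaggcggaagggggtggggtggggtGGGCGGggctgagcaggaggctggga
Tfrc (chr16:32608646-32608895, plus strand): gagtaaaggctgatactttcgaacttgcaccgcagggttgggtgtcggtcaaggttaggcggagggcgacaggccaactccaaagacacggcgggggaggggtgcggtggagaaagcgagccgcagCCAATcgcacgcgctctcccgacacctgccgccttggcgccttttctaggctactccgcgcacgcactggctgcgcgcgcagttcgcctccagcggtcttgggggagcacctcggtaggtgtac

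The stretch of Alas2 holds an AGATAA match 86 bases before the start site, a sequence present in 9.99% of the 32851 windows of the table. It also holds a GC box 26 bases before the start, and that of Alas1 holds one 111 bases before, against 32.7% of all windows. The Tfrc stretch has a CCAAT match 124 bases before the start, against 33.8% of windows. None of the 3 holds a CACGTG, which 6.02% of windows have. Tfrc and Alas1 have 2 start sites each, and only the outermost is shown. The window of the second Tfrc site has a GC box 35 bases before that start and no CCAAT match. That of the second Alas1 site has no match. A match describes the letters and not a bound site.

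Hmox1, Tfrc, Aco1 and Alas1 were higher in the lymphoma lines, while Slc40a1 and Alas2 fell to signals not well above background. Slc11a2 and Ireb2 differed between their probes. Of the ferritin genes, Fth1 did not pass, and Ftl1 rose 1.43-fold, a call lost under several alternatives. All 16 probes were well above background on at least 2 arrays and were tested. Of these, 8 rose, 3 fell and 5 did not pass (limma, adjusted p under 0.05 over 27404 tested probes). The 11 called probes are 68.8% of the members, against 64.8% of all tested probes (32.3% higher and 32.5% lower in the lines), so the share called is close to that of the array as a whole. The median log2 difference was 0.35 over the 16 probes and -0.01 over all tested probes. Slc40a1 and Alas2 passed the filter on dim probes only through the splenocytes and therefore had to differ. Of the other 14 probes, all well above background on every array, 9 (64.3%) were called. When probes well above background on all arrays were fitted alone, 15351 of 22749 were called. The groups did not overlap for 14 of 16 probes (87.5%), against 85.6% of all tested probes. By the brightest probe of each gene, 7 of the 10 genes were called, 5 higher and 2 lower (70.0%, against 63.4% of all tested genes), and both lower genes are Slc40a1 and Alas2, so 5 of the other 8 were called.

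**Figure D1:**
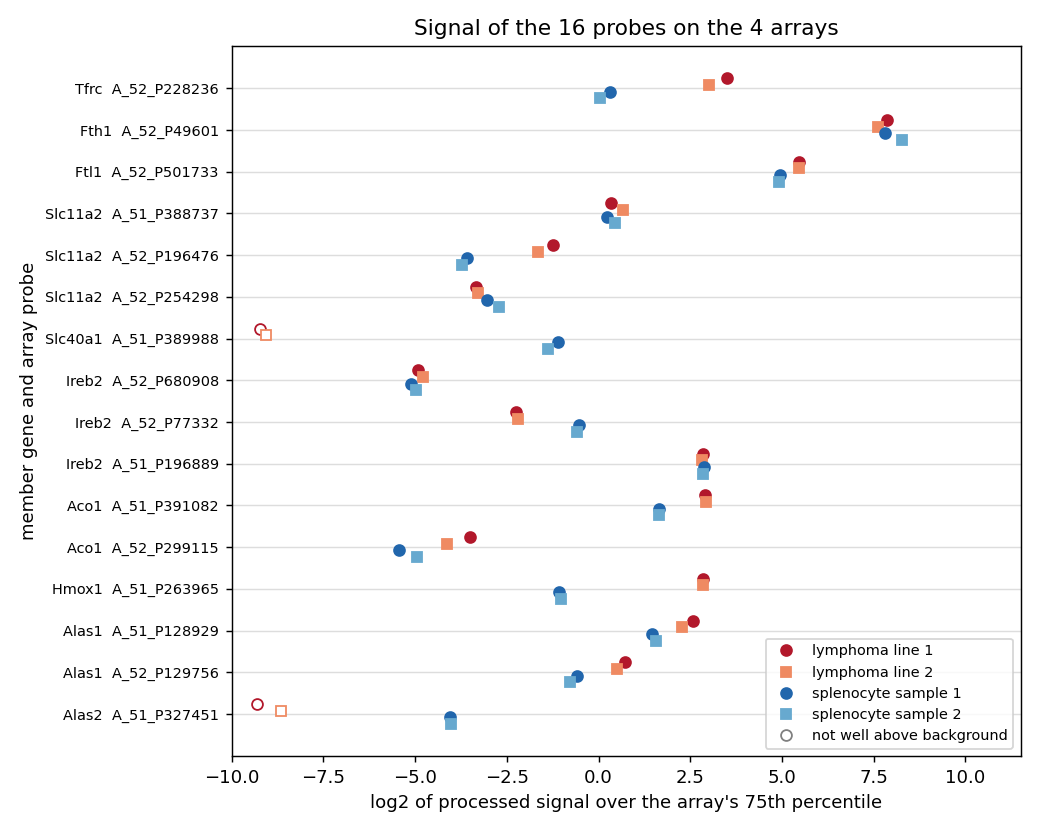
Log2 of the processed signal over the 75th percentile of the array (horizontal) for the 16 probes of the 10 genes, with a point for each lymphoma line and each splenocyte sample; open points are not well above background. The lines sit to the right of the splenocytes for Tfrc, Hmox1, Aco1 and Alas1, and only Slc40a1 and Alas2 have open points, in both lines.

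Tfrc, the transferrin receptor that brings transferrin-bound iron into the cell, was higher in both lines. Its probe (mm8, chromosome 16, 32551916 to 32551975, plus strand) was spotted 10 times on every array. The mean signal was 11.3 times the array's 75th percentile in line 1 and 8 in line 2, against 1.24 and 1.02 in the splenocyte samples. The groups did not overlap, and line 1 was 1.42 times line 2. This gave an 8.45-fold increase (log2 difference 3.08 ± 0.24, SE, n = 2 against 2; limma adjusted p = 0.000923).

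The repeated spots give the spread within an array. The 10 spots ran from 10.8 to 11.8 in line 1 and from 7.73 to 8.29 in line 2, against 1.18 to 1.34 in splenocyte sample 1 and 0.969 to 1.06 in splenocyte sample 2. The coefficient of variation within an array was 2.78% and 2.38% in the lines, against 3.89% and 2.56% in the splenocytes. The spots of the 2 lines did not overlap, nor did those of the 2 splenocyte samples, so the difference within each group was larger than the spread between spots of an array.

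**Figure D2:**
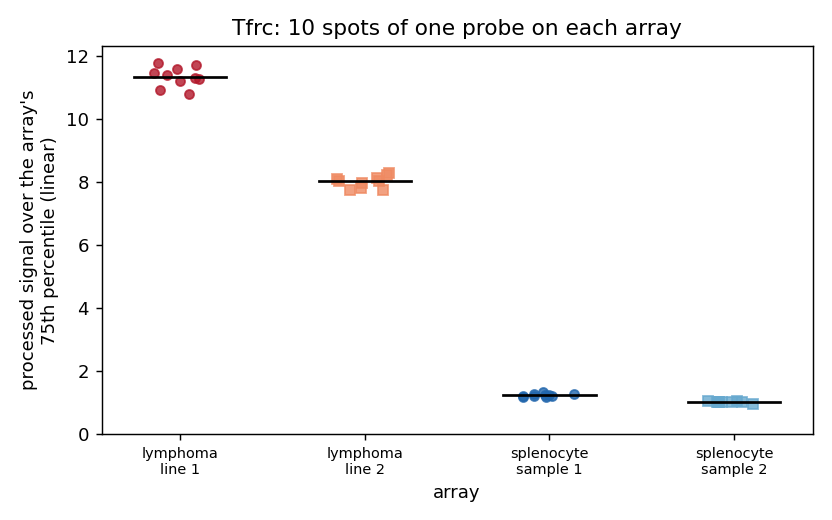
Processed signal of the 10 Tfrc spots on each array, over the array's 75th percentile, on a linear axis that starts at 0; horizontal bars are medians. The spots lie between 10.8 and 11.8 in lymphoma line 1 and between 7.73 and 8.29 in line 2, against 0.969 to 1.34 in both splenocyte samples.

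The 3 gene names whose probes lay nearest to Tfrc over the 4 arrays, after each probe was centred on its own mean, were Ccne1, which encodes cyclin E1, Txlng (listed as 4932441K18Rik) and a probe listed as Taf9 whose accession RefSeq names Ak6. Their Euclidean distances were 0.07, 0.07 and 0.08 log2 units, and their own differences 3.07, 3.01 and 3.03. With 4 arrays, likeness of this kind describes the size of the difference and little else.

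Slc11a2 encodes DMT1, which carries ferrous iron out of the endosome and, in the gut, into the cell. The gene makes transcripts with alternative first exons and alternative ends, of which only some carry an iron-responsive element. It was read by 3 probes on the minus strand of chromosome 15 (mm8), and which transcript form each one reads was not tested. The probe farthest upstream (100238119 to 100238178) gave 0.0996 and 0.103 in the lines, against 0.123 and 0.154 in the splenocytes. This difference did not pass (-0.45 ± 0.18, SE; adjusted p = 0.0864), although the groups did not overlap, and it was called with a percentile of the probes well above background on every array (-0.58, adjusted p = 0.0456).

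The middle probe, 17169 bases farther downstream (100220950 to 100221009), was designed on the cDNA AK148276. It gave 0.426 and 0.320 in the lines, against 0.0836 and 0.0754 in the splenocytes. That is a 4.65-fold increase (2.22 ± 0.20, SE; limma adjusted p = 0.00138), with both lines above both splenocyte samples, and 1.35 under normexp.

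The last probe lies another 5014 bases downstream (100215936 to 100215995). It was the brightest, with 1.26 and 1.61 in the lines and 1.17 and 1.37 in the splenocytes. Its values overlapped between groups (0.17 ± 0.20, SE; 95% confidence interval -0.36 to 0.70, adjusted p = 0.480). A ratio within an array does not depend on the scaling between arrays. That of the middle to the last probe was 4.13-fold higher in the lines, with log2 changes of 1.48 to 2.62 over the 4 pairs of a line and a splenocyte sample. An exact permutation test of 2 arrays against 2 cannot go below a two-sided p of 0.333, which is the value this ratio reached.

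Slc40a1 encodes ferroportin, the only known iron exporter of vertebrate cells. Its probe (mm8, chromosome 1, 45852956 to 45853015, minus strand) gave 0.00167 and 0.00189 in the lines, where it was not well above background, against 0.463 and 0.387 in the splenocytes. Both lines thus lay at the floor of the array. With the lines set at the lowest signal well above background, Slc40a1 was at least 59.8-fold lower (log2 difference of the measured signals -7.90 ± 0.17, SE; limma adjusted p = 0.000106). Under normexp background correction the difference was -3.32. The Slc40a1 probe was tested only through the splenocytes and had to differ, so its p-value adds no support.

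Ferroportin is a gene of red pulp macrophages, and most tested markers of macrophages, though not all, were also lower in the lines. Of 17 tested markers of the macrophage and red pulp list 13 fell, 2 rose and 2 did not pass, against 32.7% of all tested genes lower and 30.8% higher. Of the 13, 5 were dim in both lines and were tested only through the splenocytes, so they had to differ. All 19 markers on the array were well above background in at least 1 splenocyte sample and 17 in both, while 7 were not well above background in either line. C1qc, a complement subunit made by macrophages, was at least 40.9-fold lower, and Cd163, the receptor for hemoglobin bound to haptoglobin, at least 5.88-fold. Spic, the factor that drives red pulp macrophages and is also found in B cells, gave 1.58 and 1.76 in the lines, against 1.65 and 1.89 in the splenocytes, and Vcam1 gave 0.0606 and 0.0592 against 0.489 and 0.284. The summed signal of the list was 37.6 and 38.2 in the lines, against 7.49 and 5.87 in the splenocytes. Adgre1, which encodes F4/80, rose 18.7-fold (limma adjusted p = 0.000273). It gave 35.3 and 35.7 of that sum in the lines, against 2.13 and 1.69 in the splenocytes. Without Adgre1 the sums were 2.29 and 2.53, against 5.36 and 4.18. Slc11a1 was the other marker that rose, 1.87-fold (limma adjusted p = 0.00856). The part of these cells in the Slc40a1 difference was not tested.

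The ferritin genes gave the brightest signals among the 16 probes. Fth1, the heavy chain with the ferroxidase activity, gave 231 and 197 times the 75th percentile in the lines, against 226 and 311 in the splenocytes (mm8, chromosome 19, 10052040 to 10052099). The groups overlapped and the difference did not pass at -0.31 ± 0.22 (SE; 95% confidence interval -0.91 to 0.28, adjusted p = 0.270), with the opposite sign after quantile normalization (0.27, adjusted p = 0.143). Before scaling, the Fth1 signals were 259000 and 258000 in the lines, against 243000 and 160000 in the splenocytes. The 75th percentiles were 1122 and 1315, against 1078 and 514.1. Whether signals this bright still follow the amount of RNA was not tested.

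Ftl1, the light chain that helps the iron core form, gave 43.7 and 44.0 in the lines, against 30.9 and 30.4 in the splenocytes (chromosome 7, 45327649 to 45327708). It rose 1.43-fold (0.52 ± 0.14, SE; limma adjusted p = 0.0294), with arrays of a group within 1 unit of each other. The call was lost after quantile normalization (0.29, adjusted p = 0.189), with a percentile of the bright probes alone (0.39, adjusted p = 0.0665), without any 1 of the 4 arrays (adjusted p of 0.0604 to 0.151), with dim probes left in the test (0.0898) and with the replicate number as a block (0.0661). Mouse ferritin genes have many processed copies in the genome, and cross-hybridisation of these probes was not tested. The ratio of Ftl1 to Fth1 within an array was 1.78-fold higher in the lines, with log2 changes of 0.47 to 1.19 over the 4 pairs (exact permutation p = 0.333, the smallest possible).

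**Figure D3:**
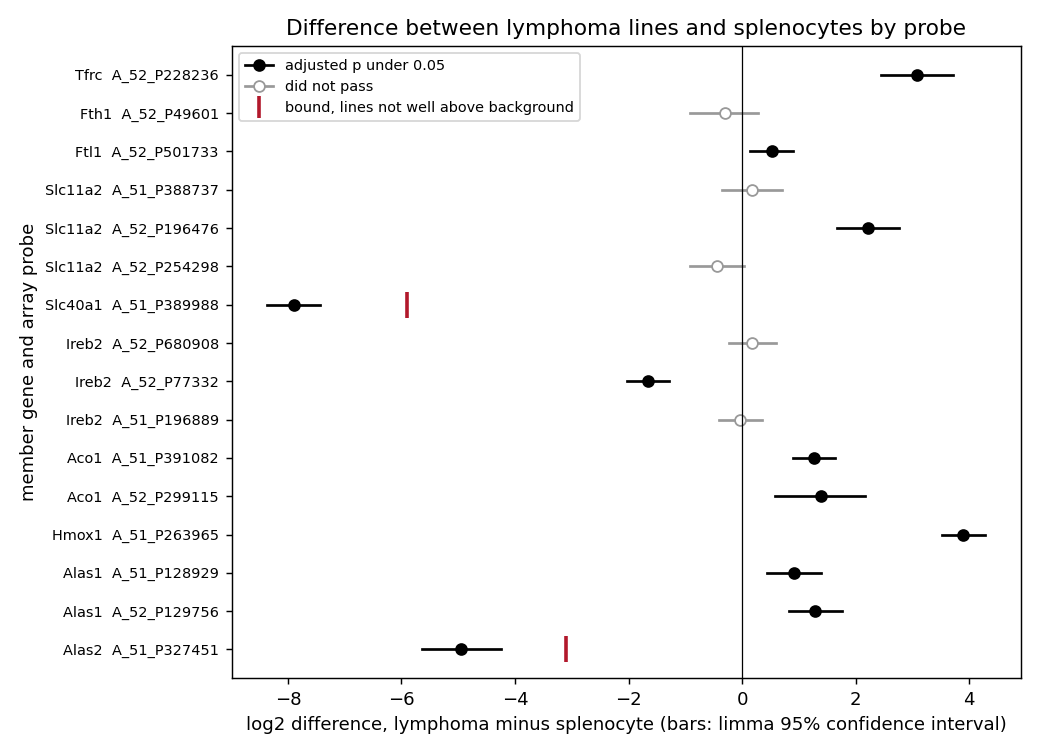
Log2 difference, lymphoma minus splenocyte, for each of the 16 probes with its 95% confidence interval; filled points passed the test, and red marks give the bound where the lines were not well above background. Hmox1 (3.89) and Tfrc (3.08) lie farthest to the right, Slc40a1 (-7.90) and Alas2 (-4.95) farthest to the left, and the 3 probes of Slc11a2 and of Ireb2 do not line up.

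Aco1 encodes cytosolic aconitase, which turns into the iron regulatory protein IRP1 when it loses its iron-sulfur cluster. Its brighter probe (mm8, chromosome 4, 40386755 to 40386814) gave 7.39 and 7.67 in the lines, against 3.14 in each splenocyte sample. The increase was 2.40-fold (1.26 ± 0.14, SE; limma adjusted p = 0.00223), and the arrays of a group were close together. The dimmer probe, 566 bases downstream, gave 0.0878 and 0.0573 in the lines, against 0.0232 and 0.0322 in the splenocytes. It rose 2.59-fold (1.38 ± 0.30, SE; adjusted p = 0.0150), so both probes moved the same way. The call of the dimmer probe was lost without splenocyte sample 1 (1.14, adjusted p = 0.0621) and under normexp background correction (0.22, adjusted p = 0.567).

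Ireb2 encodes IRP2, which binds the same elements and is degraded when iron is plentiful. It was read by 3 probes on the plus strand of chromosome 9 (mm8). The brightest and most downstream, designed on the cDNA AK034218 (54710314 to 54710373), gave 7.25 and 7.09 in the lines, against 7.31 and 7.29 in the splenocytes. The difference did not pass (-0.03 ± 0.14, SE; 95% confidence interval -0.40 to 0.35, adjusted p = 0.886), and it was 0.10 after centring on the median.

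The middle Ireb2 probe, 3418 bases upstream of that one (54706896 to 54706955), gave 0.212 and 0.218 in the lines, against 0.689 and 0.663 in the splenocytes. It fell, and was 3.15-fold lower (-1.66 ± 0.14, SE; limma adjusted p = 0.00116), with no overlap. The ratio of the middle to the last probe was 3.09-fold lower in the lines, with log2 changes of -1.69 to -1.56 over the 4 pairs. The third probe, 24726 bases farther upstream, was dim, at 0.0331 and 0.0361 in the lines and 0.0291 and 0.0320 in the splenocytes. Its difference did not pass (0.18 ± 0.15, SE; adjusted p = 0.348), was called after quantile normalization (0.64, adjusted p = 0.0159) and was -0.34 under normexp. No single direction can therefore be given for Ireb2. By the brightest probes, the ratio of Aco1 to Ireb2 was 2.44-fold higher in the lines (log2 changes of 1.24 to 1.33).

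Alas1 and Alas2 encode the housekeeping and the erythroid form of aminolevulinate synthase, the first enzyme of heme synthesis. The brighter Alas1 probe (mm8, chromosome 9, 106092237 to 106092296, minus strand) gave 5.94 and 4.82 in the lines, against 2.75 and 2.95 in the splenocytes. It rose 1.88-fold (0.91 ± 0.18, SE; limma adjusted p = 0.0108), a call lost without splenocyte sample 1 (0.86, adjusted p = 0.0626). The other Alas1 probe, 1336 bases upstream, gave 1.66 and 1.40 in the lines, against 0.671 and 0.585 in the splenocytes. It rose 2.43-fold (1.28 ± 0.17, SE; adjusted p = 0.00387), so the probes had the same direction and no overlap between groups.

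Alas2 was lower. Its probe (mm8, chromosome X, 145911166 to 145911225) gave 0.00158 and 0.00247 in the lines, where it was not well above background, against 0.0602 and 0.0613 in the splenocytes. The splenocyte samples lay close together, and Alas2 was at least 8.58-fold lower in the lines (log2 difference of the measured signals -4.95 ± 0.26, SE; limma adjusted p = 0.000403), and -1.41 under normexp. The Alas2 probe was tested only through the splenocytes and had to differ, so this p-value adds no support.

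Most tested erythroid markers, though not all, were also lower in the lines. Of 10 tested markers of that list 6 fell, 1 rose and 3 did not pass, against 32.7% of all tested genes lower and 30.8% higher. Of the 6, 2 (Tal1 and Ermap) were dim in both lines and were tested only through the splenocytes, so they had to differ. Hba-a1, an alpha globin, gave 0.276 and 0.190 in the lines, against 1.74 and 1.77 in the splenocytes, and Hbb-b1, a beta globin, gave 2.07 and 0.699 against 3.85 and 3.89. Gata1, which rose, gave 0.0968 and 0.0861 against 0.0260 and 0.0204. Of the 16 markers on the array, 8 exceeded background clearly in both lines and 9 in both splenocyte samples, and the summed signal of the list was 2.71 and 1.25 in the lines and 6.23 in each splenocyte sample. The part of erythroid cells in the Alas2 difference was not tested.

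Hmox1, heme oxygenase, which opens the heme ring and frees its iron, had the largest increase of the 10 genes. Its probe (mm8, chromosome 8, 77996380 to 77996439) gave 7.18 and 7.21 in the lines, against 0.471 and 0.497 in the splenocytes. Each group was tight and the groups lay far apart, at 14.9-fold (3.89 ± 0.14, SE; limma adjusted p = 0.000209). In size, this difference ranked 1861 of 27404 tested probes, and that of Tfrc 3101. Hmox1 is also abundant in red pulp macrophages, whose markers are given with Slc40a1. Of the 17 tested markers of that list, 13 fell in the lines, where Hmox1 rose, 2 rose and 2 did not pass. The part of these cells in the Hmox1 difference was not tested. The nearest gene names over the 4 arrays were Plxna1, Pih1d2 and Sall1, at distances of 0.05, 0.09 and 0.10 log2 units.

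The rest of the pathway was described with 79 genes in 6 lists, each gene by its brightest tested probe. Of 71 tested genes 31 rose, 16 fell and 24 did not pass, with a median log2 difference of 0.27, against 30.8% higher, 32.7% lower and a median of -0.04 over all 18243 tested genes. These counts describe the lists and are no test of them.

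Among genes of iron uptake and its control, 3 of 9 tested genes rose, 3 fell and 3 did not pass. Slc39a8, which encodes ZIP8, a transporter of zinc, manganese and iron, gave 1.18 and 1.17 in the lines, against 0.0387 and 0.0356 in the splenocytes, a 31.7-fold rise (log2 difference 4.98, adjusted p = 0.000151), with a log2 difference of 3.22 under normexp. Slc39a14, its relative ZIP14, which takes up iron not bound to transferrin, rose 4.21-fold (adjusted p = 0.00219). Cybrd1, a ferric reductase, was at least 14-fold lower, and its signal in both lines was not well above background, so it too was tested only through the splenocytes. Its measured log2 difference was -5.82, and -1.82 under normexp. Fbxl5, which senses iron and marks IRP2 for degradation, fell 3.11-fold (adjusted p = 0.00263). Trf, transferrin itself, was chosen for mention after its values were seen and did not pass, with 0.206 and 0.254 in the lines and 0.182 and 0.167 in the splenocytes.

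Among storage, chaperone and export genes, 2 of 8 rose, 2 fell and 4 did not pass. Cp, ceruloplasmin, the ferroxidase that works with ferroportin, gave 0.397 and 0.142 in the lines, against 0.00955 and 0.0105 in the splenocytes, where 1 of the samples was not well above background (log2 difference 4.56, adjusted p = 0.00237). This difference was 1.77 under normexp, 3.82 without line 1 and 5.31 without line 2. Pcbp2, an iron chaperone of ferritin, rose 1.65-fold (adjusted p = 0.0131), a call lost without splenocyte sample 1 (adjusted p = 0.0786) or sample 2 (0.0729). Both mitoferrins, the iron importers of mitochondria, fell, Slc25a37 3.45-fold (adjusted p = 0.00136) and Slc25a28 2.05-fold (adjusted p = 0.00420). Ncoa4, which delivers ferritin to autophagy, gave 6.08 and 6.53 in the lines and 6.06 and 5.78 in the splenocytes and did not pass.

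Heme synthesis beyond the first step went both ways, with 4 of 11 genes higher, 3 lower and 4 that did not pass. Abcb6, a porphyrin transporter, rose 5.50-fold (adjusted p = 0.000577). Ppox, the penultimate enzyme, fell 3.11-fold (adjusted p = 0.00703), and Urod, uroporphyrinogen decarboxylase, fell 1.85-fold (adjusted p = 0.0102), a call lost without splenocyte sample 2 (adjusted p = 0.0657).

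In the list of heme breakdown, transport and sensing, 4 of 13 genes rose, 5 fell and 4 did not pass. Lrp1, the receptor for heme bound to hemopexin, rose 7.63-fold (log2 difference 2.93, or 1.89 under normexp; adjusted p = 0.000614) and Flvcr1, a protein described as a heme exporter and choline transporter, rose 2.76-fold (adjusted p = 0.00194). Bach2, a heme-binding repressor that shapes B-cell fate, gave 1.84 and 2.25 in the lines, against 15.8 and 16.4 in the splenocytes, a 7.95-fold fall (adjusted p = 0.000492). Bach1, its relative and a heme-responsive repressor of Hmox1, gave 0.169 and 0.185 in the lines and 0.193 and 0.196 in the splenocytes and did not pass. Haptoglobin, Hp, which binds free hemoglobin, was at least 12.5-fold lower. It was dim in both lines and tested only through the splenocytes, so it had to differ, and the measured difference was -4.56, against -1.65 under normexp.

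**Figure D4:**
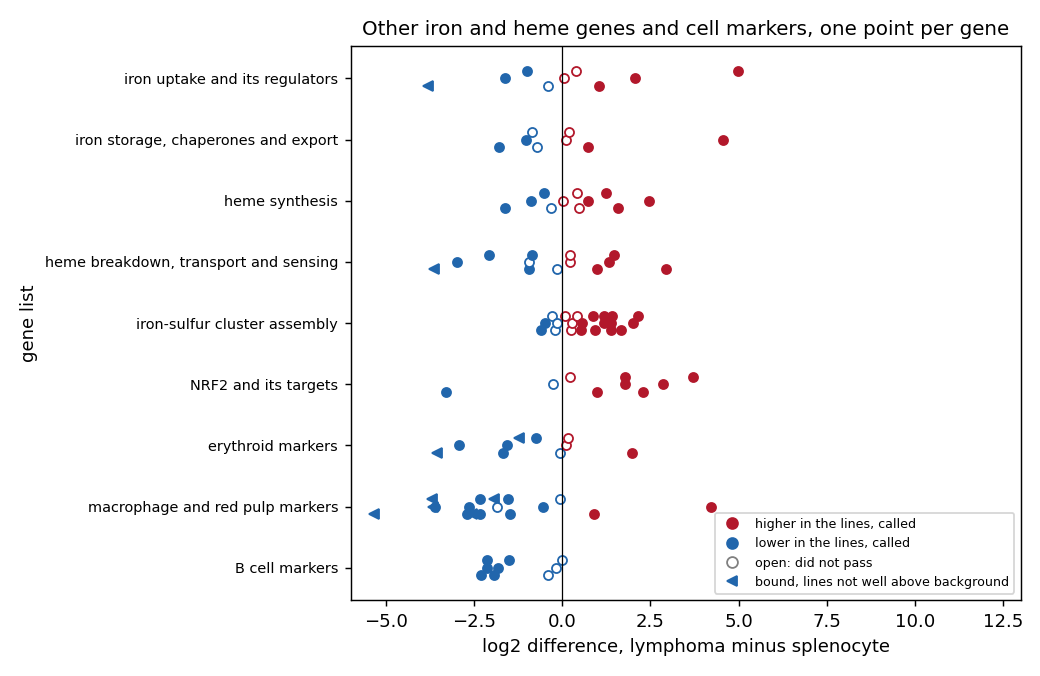
Log2 difference, lymphoma minus splenocyte, of each tested gene in the 6 pathway lists and in 3 marker lists; filled points passed the test, and triangles are bounds where the lines were not well above background. Most filled points of the iron-sulfur list (12 of 14) lie to the right of 0, and most of the macrophage list (13 of 15) to the left. Over all tested genes 30.8% were called higher and 32.7% lower.

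Genes of iron-sulfur cluster assembly rose more often than they fell, with 12 of 21 higher, 2 lower and 7 that did not pass (median log2 difference 0.57). Over all tested genes 30.8% were higher and 32.7% lower, with a median of -0.04, and the list as a set was not tested. Hspa9, the mitochondrial chaperone that hands clusters on, gave 66.6 and 60.5 in the lines, against 13.2 and 15.6 in the splenocytes, a 4.42-fold rise (adjusted p = 0.000951). Lyrm4, a partner of the cysteine desulfurase, rose 4-fold (adjusted p = 0.00109), while the desulfurase gene Nfs1 did not pass, with 11.1 and 9.51 against 8.64 and 8.55. Mms19, which delivers clusters to nuclear proteins, fell 1.52-fold (adjusted p = 0.0238) and Isca2 fell 1.41-fold (adjusted p = 0.0391). Both calls were lost without either splenocyte sample and with no filter on dim probes, and over all alternatives the adjusted p reached 0.127 for Mms19 and 0.189 for Isca2.

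Hmox1 is a classical target of the factor NRF2, encoded by Nfe2l2. Of 9 tested genes of NRF2 and its targets 6 rose, 1 fell and 2 did not pass (median log2 difference 1.79). Gsr, glutathione reductase, rose 13.1-fold (adjusted p = 0.000359) and Gclm, the modifier subunit of glutamate-cysteine ligase, 7.28-fold (log2 difference 2.86, or 1.99 under normexp; adjusted p = 0.000556). Osgin1, an oxidative stress-induced growth inhibitor, fell 9.87-fold (adjusted p = 0.000297). Nfe2l2 itself gave 8.19 and 7.63 in the lines and 9.37 and 9.55 in the splenocytes and did not pass (adjusted p = 0.178), nor did Keap1, its inhibitor.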

How the data were processed

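Total RNA of 2 lymphoma lines and 2 splenocyte samples was hybridised as Cy3-labelled cRNA to 1-colour Agilent arrays. The deposited intensity per spot is the processed signal of Feature Extraction 9.5.1.1, background-subtracted and detrended, per the file headers (9.5 per the submitters' processing notes). The deposited value table holds the same intensities times 1 factor per array.

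Each signal was divided by the array's 75th percentile over non-control spots and log2-transformed (the scaled signal in the report). Outlier spots of any array were dropped from all, at a loss of 153 probes, and spots of a probe were averaged. A probe had to be well above background on 2 or more of the 4 arrays and was then fitted with limma 3.58.1 in R 4.3.3 (lmFit and eBayes, two-sided), with Benjamini-Hochberg adjustment over 27404 probes and calls at 0.05. Unadjusted, 18873 probes were under 0.05. For a probe not well above background in a whole group, the bound sets each dim array at the higher of its own signal and the lowest signal well above background. In line 1, Steap3 was not well above background at 0.00862, while S100a9 was at 0.00755. Each fold given as "at least" therefore depends on this setting and is no strict limit. Prior and residual degrees of freedom were 2.42 and 2, and the number of arrays limits the precision. The scripts were tested on simulated data.

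Gene names were updated by RefSeq accession, which 24375 probes matched. Probe coordinates are those of the array design (mm8); exon and UTR annotation of that build was not used here. Every probe of the 10 genes is reported. Of each pathway list, the rule names the 2 called genes with the largest increase and the 2 with the largest decrease, dim genes by their bound (1 gene so named and some markers are not reported here); Trf, Ncoa4, Bach1, Nfs1, Nfe2l2 and Keap1 were added after their values were seen, as were C1qc, Adgre1, Gata1, Tal1, Ermap, Csf3r, Cd2, Prf1, Tcf4, Cd79b, Ms4a1 and Pax5 among the markers, of which the rule names the first 3 of a list. For likeness it names the 3 nearest genes by Euclidean distance. The genes and lists were chosen with earlier results of these data known.

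The sample titles share replicate numbers, but nothing says that they pair a line with a splenocyte sample. The alternatives were other scalings, background corrections, filters on dim probes, handling of outlier spots, variance model, the deposited value table, the replicate number as a block, the mean over a gene's probes and leaving out each array. The normexp background correction used an offset of 50, which is above the processed signal of the dimmest probes reported.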

Additional observations from a re-analysis of the deposited data

How the results depend on the processing

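Over all alternatives the number of called probes among the 16 ranged from 8 to 11, and the number of called genes among the other 71 from 36 to 50. Without 1 array at a time, 5 to 7 probes rose, and the lowest count, 5 against 8, came without splenocyte sample 1. With only probes well above background on all arrays, 1 probe fell, against 3, because Slc40a1 and Alas2 leave the test. Some differences that were not called turned round: Fth1 to 0.27 after quantile normalization, the dim Ireb2 probe to -0.34 under normexp and the last Ireb2 probe to 0.10 after centring on the median. Normexp used an offset of 50. The processed signals of the dim Ireb2 probe, before scaling, were 37.2 and 47.4 in the lines and 31.4 and 16.4 in the splenocytes. The cause of these turns was not tested. The last Slc11a2 probe, at 0.17, was at 0.00 without lymphoma line 2 and 0.34 without line 1. Tfrc (2.83 to 3.33), Hmox1 (3.70 to 4.01) and the middle Ireb2 probe (-1.79 to -1.52) kept direction and call under every alternative run. Slc40a1 ran from -8.03 to -3.32 where it was tested. It was tested only through the splenocytes and had to differ, so its kept call adds no support. The scalings moved the median of all probes by 0.15 (quantile), 0.12 (median), -0.13 (percentile over bright probes) and -0.28 (normexp), and the share of calls that were higher was 43.9% to 54.4%, against 49.9%. With the replicate block, 10 of the 16 probes, 45 of the other genes and 16749 of all probes were called; same-numbered samples deviated together with a correlation of only 0.0113 over 2 pairs, so the numbers were not taken as pairs. A slide or scan block could not be run, since all arrays share 1 slide and 1 scan.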

Other observations

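Markers of other blood cells differed between the lines and the splenocytes, which had been selected for B220. Over all tested genes 32.7% were lower and 30.8% higher in the lines. Of 5 tested neutrophil markers 4 fell and 1 did not pass, but S100a8, Lyz2 and Csf3r were dim in both lines and were tested only through the splenocytes, so they had to differ. Their list summed to 0.046 and 0.0658 in the lines, against 13.5 and 8.21 in the splenocytes.

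Of 8 T-cell markers 5 fell, 2 of them dim in both lines, and 1, Cd3g, rose 20.5-fold. The sums were 7.05 and 8.71 in the lines, against 15.3 and 13.5 in the splenocytes, but without Cd2 they were 6.37 and 7.71, against 7.32 and 5.47. Of these, Cd3g alone gave 5.09 and 6.15 in the lines, against 0.289 and 0.258 in the splenocytes. Of 4 tested NK-cell markers 3 fell, 1 of them dim in both lines, and Prf1 rose. Their sums were 0.569 and 0.432, against 0.842 and 0.805, and without Prf1 0.0614 and 0.0463, against 0.611 and 0.542. Of 7 dendritic-cell markers 4 rose and 2 fell, 1 of them dim in both lines. Their sums were 35.3 and 35.2, against 22.8 and 22.1, and without Tcf4 8.45 and 9.22, against 7.95 and 8.47.

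Neither of the 2 tested platelet markers passed (sums of 0.0800 and 0.0953, against 0.196 and 0.116). The B-cell markers summed to 306 and 296 in the lines, against 559 and 702 in the splenocytes. The part of these cells in the iron and heme results was not tested.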
